A study of Mus musculus with 3 samples.

Results

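Adult liver and bone marrow of the mouse were set against each other on 2 of the 3 arrays of the series, 1 array per tissue. Both RNA samples came from the C57BL/6 strain and were labelled with Cy3 on Agilent whole-genome expression arrays, which carry probes for mouse genes and are read as a fluorescence signal. The adult liver came from mice aged 12 weeks. The labels do not make clear whether that age also holds for the marrow donors, and no sex or number of animals is stated. The remaining array of the series held fetal liver of gestation day 13.5 and served only to choose the probe of a gene and for a few levels given beside the others. RNA was taken with the QuickGene tissue kit and labelled with Agilent's Quick Amp kit, and the 3 arrays lay on 1 slide read in 1 scan. Batches of collection, extraction or labelling are not stated and cannot be told apart from the tissues. No allele, treatment or sorting step is named in the labels, so each sample is a bulk tissue. Of 19784 genes named on the array, 14283 could be compared between the tissues. Of these, 11956 were well above background on both arrays, 962 on the liver array and dim on the marrow array, and 1365 on the marrow array and dim on the liver array. Dim means here that the scanner software did not call the probe well above background.

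Liver parenchyma consists mainly of hepatocytes, which make most plasma proteins, clear ammonia and drugs, form bile and keep blood glucose steady. Its sinusoids are lined by fenestrated endothelium with resident macrophages, the Kupffer cells. Bone marrow is the adult site of blood formation, where dividing precursors yield red cells, platelets, granulocytes, monocytes and B cells within a stroma of mesenchymal cells, fat cells and bone.

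All levels are signals as read from the array, before scaling. A fold is the ratio of the signals after each array was divided by the 75th percentile of its gene spots, which was 296.5 in liver and 894.5 in marrow. A gene with equal signals on both arrays is therefore 3.02-fold higher in liver on the scaled values. For a probe dim in 1 tissue only a bound can be had, given as "at least". The dim side was then set to the array's floor, its faintest signal called well above background (18.9 in liver and 23.7 in marrow), or to the probe's signal if that was higher. As each tissue has 1 array, the spread between samples is unknown, no test was made and every fold describes these 2 RNA samples. Spots of the same probe on 1 array differed little, with a median SD of the log2 signal of 0.0695 over 164 probes in liver and 0.0529 over 167 probes in marrow. In bulk tissue, fewer cells of a type and less RNA per cell cannot be told apart.

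The tissues differed widely. Adult liver was at least 4-fold higher for 2734 genes (19.1% of those compared) and bone marrow for 2169 (15.2%), which left 9380 genes (65.7%) not past the threshold. Of these, 8546 were measured in both tissues and within 4-fold, 5240 of them within 2-fold. The other 834 had only a bound below 4-fold, so their true fold is unknown. The difference was a bound for 805 of the genes higher in liver and for 688 of those higher in marrow. The median fold of the genes past 4-fold was 11.2 towards liver and 10.3 towards marrow. Large differences lay mostly towards liver, with 1123 genes past 16-fold against 777 in marrow, and 571 against 227 past 64-fold. The arrays themselves allow larger folds towards liver, since the brightest scaled probe of the liver array lay 57155-fold above the marrow floor and the brightest of the marrow array 8471-fold above the liver floor. Across the 11956 genes measured in both tissues, Pearson's r of the scaled log2 signals was 0.612 and Spearman's rho 0.625, a correlation across genes, which are not independent replicates. Scaling to control RNAs added in known amounts (spike-ins) in place of the 75th percentile shifted all differences by -2.84 (log2) and left 849 genes higher in liver and 9774 in marrow. Any measured difference towards liver of less than 7.16-fold therefore turns towards marrow under that scaling, also where this is not repeated beside the gene. The medians of 12 lists turned the same way, those of cholesterol synthesis, sex-linked, iron, macrophage, respiratory chain, secretory pathway, interferon, endothelial, stellate cell, bile duct, fat cell and pancreas genes. Just around the threshold lay 289 genes at 3.5-fold to 4-fold and 233 at 4-fold to 4.5-fold towards liver, and 252 and 202 towards marrow.

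**Figure D1:**
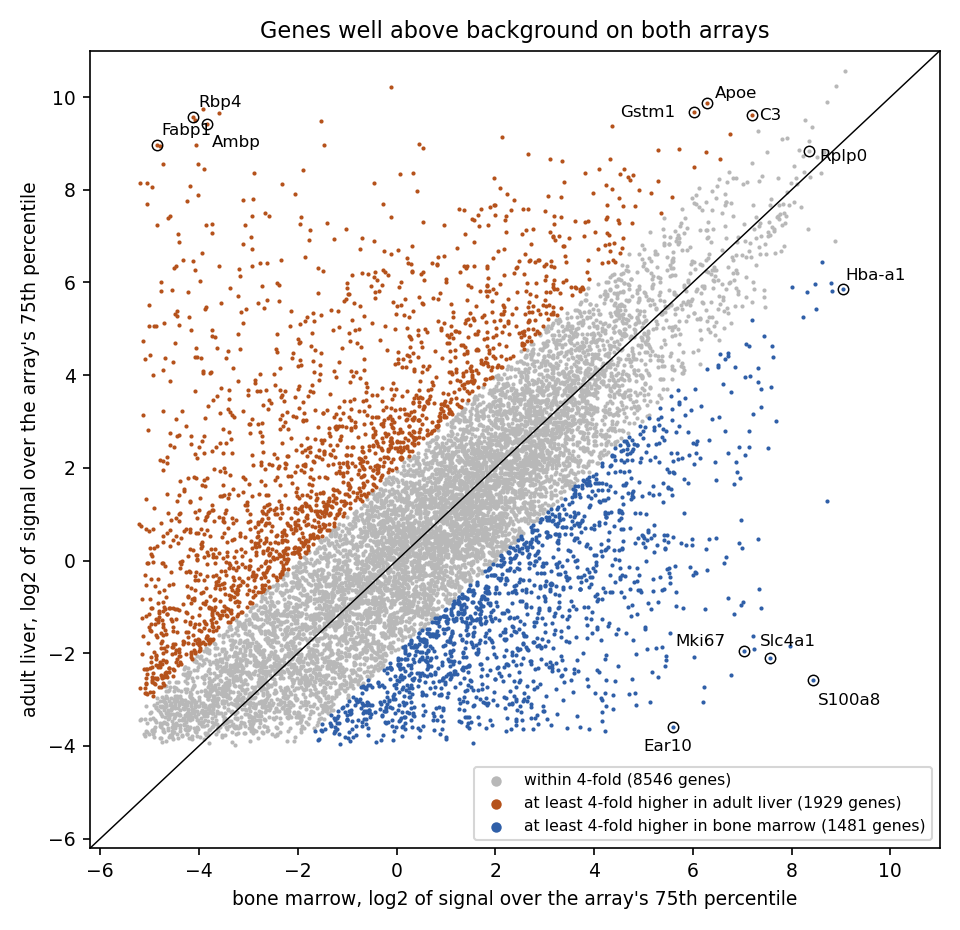
Scaled log2 signal of 11956 genes well above background on both arrays, with bone marrow on the horizontal and adult liver on the vertical axis; each point is a gene and the line marks equal scaled levels. The 1929 genes higher in liver reach far up on the left, where Fabp1 and Rbp4 lie, and the 1481 higher in marrow reach down on the right, where S100a8 and Ear10 lie.

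The defining markers of hepatocytes and of blood cells lay on the side of their tissue. All 4 hepatocyte markers on the array were well above background in liver and none in marrow, with summed scaled signals of 1256 and 0.0253. All 6 neutrophil markers were well above background in marrow and 2 in liver, with sums of 2.71 in liver and 1657 in marrow. The 4 red cell markers summed to 51.9 in liver and 386 in marrow, and the 3 megakaryocyte markers to 0.93 and 80.9. The 4 bone and stroma markers summed to 43.3 in liver and 39.5 in marrow, and 1 was well above background in liver and 4 in marrow. Both sums came mostly from Cxcl12 (scaled log2 signal 5.432 in liver and 5.248 in marrow). Bglap, Ibsp and Lepr were dim in liver and at least 11.8-fold, 6.49-fold and 5.28-fold higher in marrow. Markers of tissues that a dissection can carry along had lower sums in liver than in marrow. For scale, the 3 T cell markers summed to 0.679 in liver and 2.85 in marrow. The 3 muscle markers summed to 0.241 in liver and 2.33 in marrow, the 3 exocrine pancreas markers to 0.14 and 1.52, and the 2 fat markers to 0.0789 and 2.8. In marrow these sums came mostly from Mylpf, Cela1 and Adipoq (scaled log2 signal 1.017, 0.583 and 1.483). The pancreas markers Cpa1 and Pnlip and the fat marker Plin1 were dim on both arrays. The contribution of such tissues to any fold was not tested.

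The leading genes of each side belong to its best-known products. Among genes measured in both tissues, the largest difference towards liver was that of Fabp1, the fatty acid binding protein of hepatocytes (probe on chromosome 6, 71154906 to 71154965, mm9), with signals of 149000 in liver and 30.8 in marrow and a fold of 14595. Fgb, which encodes the fibrinogen beta chain, had 145000 and 32.2 (13585-fold). Rbp4, the plasma carrier of retinol, had 227000 and 51.6 (13272-fold). The marrow signals of Fabp1 and Fgb lay close above the floor of 23.7. Serpina1d, the urinary protein gene Mup3, the antithrombin gene Serpinc1, the hydroxysteroid dehydrogenase gene Akr1c6, Ambp, the fetuin gene Ahsg and Cyp2d10 followed, between 13039-fold and 9433-fold. Of these, Serpinc1 (24.3), Cyp2d10 (26.8) and Akr1c6 (33.9) also had marrow signals close above the floor. The brightest liver genes that were dim in marrow were Alb, Mup1, Fgg, Ces3b, Ces1c, Mup4, Apoa2 and Rgn, which were at least 16166-fold to at least 37297-fold higher in liver.

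Towards marrow, S100a8, a subunit of the neutrophil protein calprotectin (chromosome 3, 90473778 to 90473837, mm9), had signals of 49.8 in liver and 309000 in marrow, a fold of 2057. Chil3, a chitinase-like protein of myeloid cells, had 83 and 224000 (895-fold). Slc4a1, the anion exchanger of the red cell membrane, had 69.5 and 168000 (801-fold). These genes are known from neutrophils, other myeloid cells and red cells. Ear1 and Ear10, which encode ribonucleases of eosinophils, Ifitm6, the neutrophil protease gene Ctsg, the proliferation marker Mki67, Lcn2 and Cd24a completed the first 10, between 611-fold and 457-fold. The brightest marrow genes that were dim in liver were led by Ltf, the lactoferrin gene of neutrophil granules (signals 4.65 and 296000, at least 5191-fold), and by Mpo, the myeloperoxidase gene (21.4 and 250000, at least 3872-fold). Camp (at least 4016-fold), Prg2 (at least 3946-fold), Eraf (at least 2490-fold), Retnlg (at least 2297-fold), Ngp (at least 2122-fold) and the red cell antigen gene Rhd, at least 1184-fold, came next by brightness.

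Gene lists for organ functions and cell types were then read against the shares of all genes compared, 19.1% towards liver and 15.2% towards marrow. The lists were chosen with earlier results of these arrays known, so their direction is a description. Of 1212 listed genes compared, 438 were at least 4-fold higher in liver, 386 in marrow and 388 neither.

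**Figure D2:**
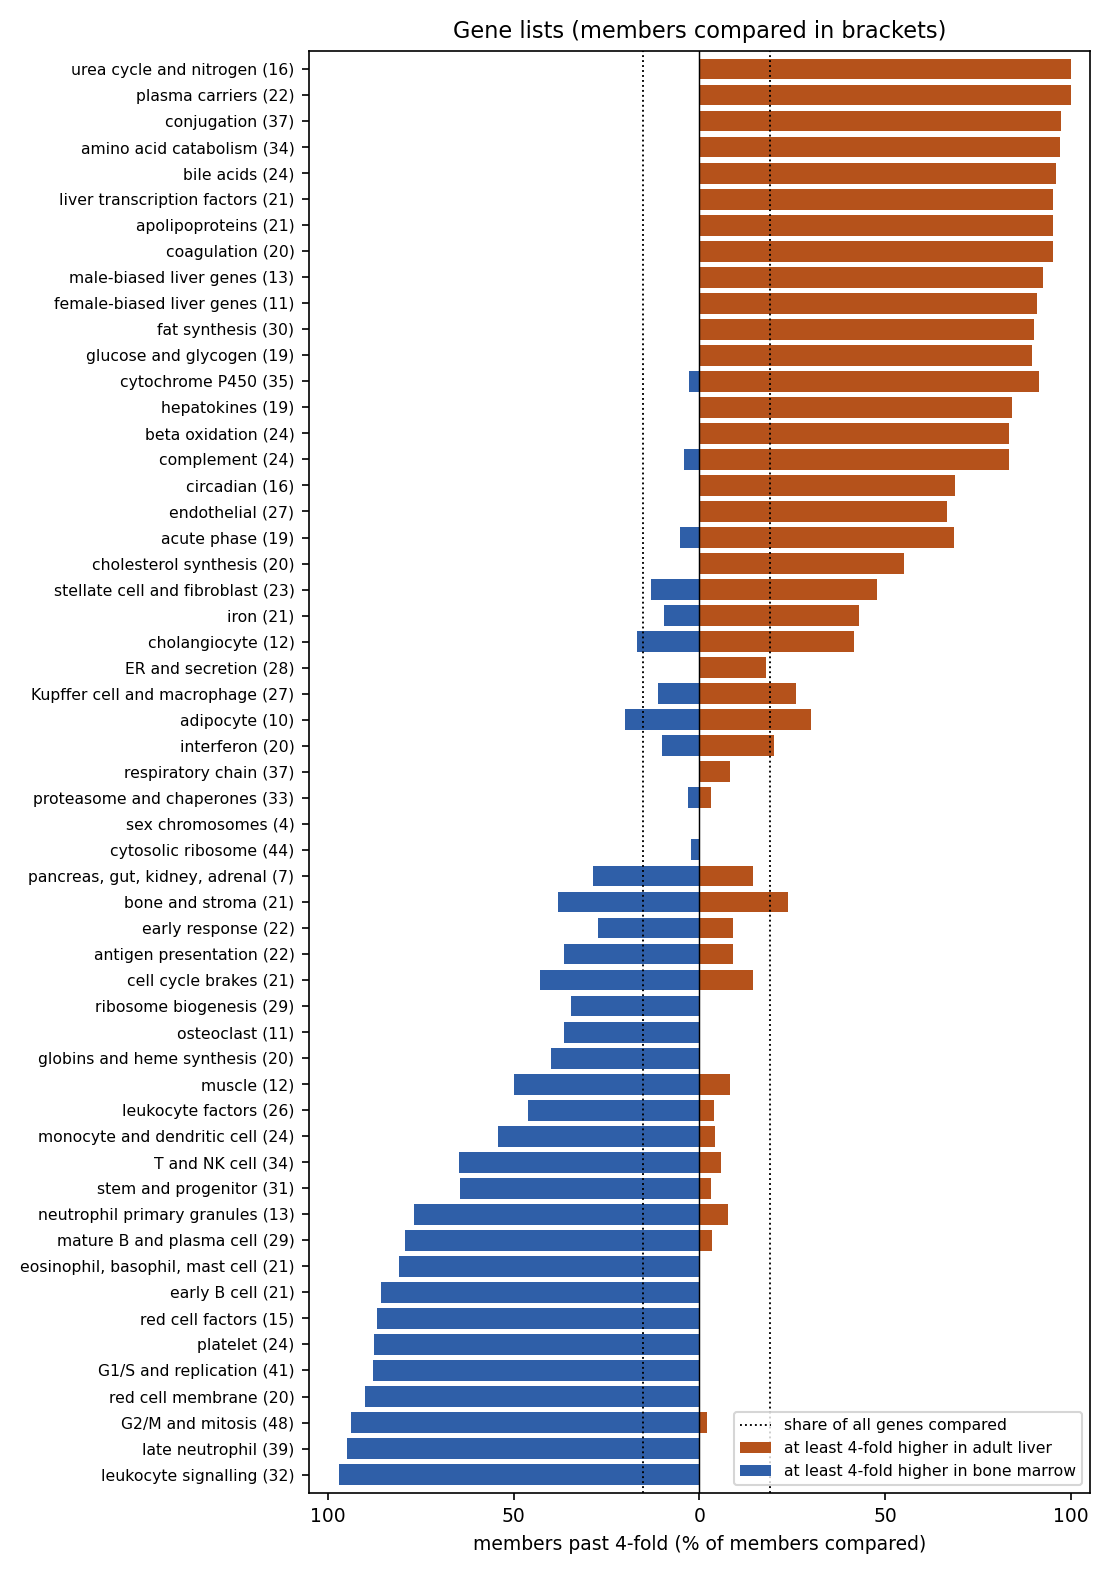
Members past 4-fold in each of 55 gene lists, as a percentage of those compared, with adult liver higher to the right, bone marrow higher to the left and the number compared in brackets. Dotted lines mark the shares of all genes, 19.1% and 15.2%. Lists of hepatocyte functions fill the upper right, blood cell and cell division lists the lower left, and ribosome, proteasome and respiratory chain lists stay near 0 on both sides.

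Plasma carriers had the largest median of the 55 lists. All 22 carriers and protease inhibitors compared were higher in liver with a median of 5946-fold, and 1 further member, A1bg, was dim on both arrays. Alb, the gene of serum albumin (chromosome 5, 90901598 to 90901657, mm9), gave 293000 in liver and 6.21 in marrow, where it was dim, so it was at least 37297-fold higher in liver. The hemopexin gene Hpx (at least 6963-fold) and the vitamin D carrier Gc (6841-fold) behaved alike, whereas Trf, which encodes transferrin, was clearly measured in marrow too (90700 and 3510, 78.0-fold). Of 21 apolipoprotein and lipoprotein genes, 20 were higher in liver (median 421-fold). Apoa2 was at least 16421-fold, Apoh at least 13111-fold and Apob at least 1973-fold higher, but Apoe, which macrophages also make, differed by 12.0-fold with signals of 280500 and 70070. Pltp, the phospholipid transfer protein gene, was the exception at 3.51-fold.

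Of 20 coagulation genes, 19 were higher in liver (median 1334-fold). The fibrinogen chains Fgg and Fgb led. F2, the prothrombin gene, had 111000 in liver and 55.2 in marrow (6067-fold), and F10 was lowest of the 19 at 16.8-fold. F5, which platelets also carry, gave 729 and 902 and stayed at 2.44-fold. Complement was higher for 20 of 24 genes (median 146-fold), led by Mbl2, a lectin that starts the cascade (at least 9063-fold), C4bp (at least 8096-fold) and the inhibitor Cfi (at least 5015-fold). C3, the central component, was bright in both tissues (231500 and 131600, 5.31-fold). The 3 chains of C1q, products of macrophages rather than hepatocytes, stood apart from the list, C1qc at 1.04-fold towards liver and C1qb at 1.69-fold and C1qa at 2.11-fold towards marrow. Cfp, which encodes properdin of myeloid cells, was 4.42-fold higher in marrow, with 2190 and 29200.

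Among acute phase genes, 13 of 19 were higher in liver (median 23.5-fold), led by Serpina3m (2073-fold), Saa4 (at least 1082-fold) and Saa2 (850-fold). Those that did not follow included genes that neutrophils share with hepatocytes. Hp, the haptoglobin gene, gave 184000 in liver and 142000 in marrow (3.91-fold), Lrg1 was at 2.48-fold, and Lcn2, which encodes lipocalin 2 of neutrophil granules, was 497-fold higher in marrow (44.8 and 67200). Fgl1 (2.07-fold) and Lbp (1.48-fold) towards liver and Cd14 (1.40-fold) towards marrow were also within 4-fold. Of hormones and growth factors of the liver and their receptors, 16 of 19 were higher there (median 78.0-fold). The glucagon receptor gene Gcgr led (4138-fold), followed by Igfbp1 (at least 1718-fold) and the iron hormone gene Hamp (at least 1324-fold). Thpo, the liver-made hormone of platelet formation, gave 1080 in liver and 1740 in marrow and differed by only 1.87-fold.

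The albumin and fibrinogen genes can be set beside the sequence before their starts, from RefSeq on GRCm38.p6. Shown are 120 bases ending directly before the start of Alb (chr5:90460750-90460869, plus strand) and of Fga, the fibrinogen alpha gene (chr3:83026033-83026152, plus strand), which was at least 998-fold higher in liver. Capitals mark a match to GTTAATNA, on either strand, a core of the motif of the liver homeodomain factor HNF1. The match begins 32 bases before the start in Alb and 45 bases before it in Fga. Both are examples, and most genes of their lists lacked the motif near the start. In windows of 300 bases, GTTAATNA was in 3 of 21 for plasma carriers (14.3%) and 2 of 17 for coagulation genes (11.8%). It was in 2.54% of all windows. The sequences of Fgg and Fgb, which had larger folds than Fga, are not shown.
Alb: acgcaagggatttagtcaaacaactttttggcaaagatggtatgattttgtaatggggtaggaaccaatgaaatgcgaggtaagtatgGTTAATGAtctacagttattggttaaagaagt
Fga: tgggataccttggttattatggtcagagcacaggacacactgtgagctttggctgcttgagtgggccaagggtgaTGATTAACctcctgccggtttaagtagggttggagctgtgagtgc

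Drug metabolism was a liver trait almost throughout. Of 35 cytochrome P450 genes and partners, 32 were higher in liver (median 1629-fold). Cyp3a41a gave 105000 in liver and 11.5 in marrow (at least 13366-fold), Cyp2f2 81200 and 5.41 (at least 10336-fold) and Cyp2d10 83800 and 26.8 (9433-fold). Only Cyp1b1, a form known from tissues outside the liver, was higher in marrow (at least 17.3-fold, 13.5 and 985), and Cyp4f18, a leukotriene hydroxylase of neutrophils, was at 1.20-fold towards marrow. Por, the electron donor of these enzymes, was 4.34-fold and Cyb5a 7.30-fold higher in liver, so the shared partners differed far less than the enzymes. Conjugation and hydrolysis followed with 36 of 37 genes higher (median 6.66 on the log2 scale), among them Ces3b (at least 20622-fold), Ces1c (at least 19858-fold) and Gsta3 (at least 14512-fold). Glutathione transferases with a wide distribution lay lower, Gstp1 at 11.9-fold and Gstm1 at 12.6-fold, both with marrow signals above 30000 (35000 and 58000).

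Nitrogen disposal and amino acid breakdown showed the same pattern. All 16 genes of the urea cycle and nitrogen handling were higher in liver (median 49.2-fold). Uox, urate oxidase, led with 101000 and 6.2 (at least 12857-fold), followed by the mitochondrial urea cycle enzymes Cps1 (34000 and 5.67, at least 4328-fold) and Otc (10800 and 6.19, at least 1375-fold) and by Arg1, the arginase that closes the cycle (at least 1311-fold). The cytosolic steps Ass1 (51.4-fold) and Asl (18.6-fold) were measured in marrow too. Of 34 amino acid catabolic genes, 33 were higher (median 470-fold), with the histidine enzyme Ftcd (at least 7243-fold) and Mat1a (at least 5983-fold) in front and Sdsl the exception at 2.24-fold.

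Bile formation was higher in liver for 23 of 24 genes (median 102-fold), among them the uptake carrier Slco1b2 (at least 8160-fold), the export pump Abcb11 (64100 and 47.1, 4106-fold) and the bile acid receptor gene Nr1h4 (at least 1078-fold). Cyp7a1, the rate-limiting enzyme of bile acid synthesis, gave only 861 in liver and was at least 110-fold higher there. For Akr1d1, dim in marrow, only a bound of at least 3.88-fold could be had. For glucose and glycogen, 17 of 19 genes were higher (median 47.7-fold), among them Gckr (at least 6976-fold), Gys2, the liver glycogen synthase (at least 1846-fold), and the glucose carrier Slc2a2 (at least 1232-fold). The liver glycogen phosphorylase gene Pygl, in contrast, was bright in both tissues (35000 and 73400, 1.44-fold).

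Fat metabolism differed less at its oxidative end than at its synthetic end. Of 24 genes of fatty acid oxidation and ketone formation, 20 were higher in liver (median 10.9-fold), with Ppara, a nuclear receptor for fatty acids, at least 644-fold higher. Cpt1a (3.36-fold), Acadl (3.08-fold), Hadha (2.74-fold) and Acot2 (2.25-fold) were within 4-fold. Of 30 genes of fatty acid and fat synthesis and lipid droplets, 27 were higher (median 31.9-fold), led by Cidea (55100 and 13.3, at least 7014-fold), Elovl3 (at least 3244-fold) and Thrsp (2836-fold), with Fasn at 32.0-fold. Cholesterol synthesis was closer between the tissues, with 11 of 20 genes higher (median 4.91-fold), from Insig1 (56.3-fold) down to Sqle (1.15-fold) and the regulator Srebf2 (1.22-fold towards marrow). The list's median turned to -0.55 on the log2 scale, towards marrow, when arrays were scaled to spike-ins.

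Transcription factors of the liver network were higher there for 20 of 21 genes (median 136-fold). Foxa2 was at least 612-fold, Tbx3 at least 610-fold and Prox1 at least 136-fold higher. Hnf4a, a central factor of hepatocytes, gave only 133 and 97 and was 4.14-fold higher in liver, near the threshold, although all 3 of its probes passed 4-fold. Zhx2 was dim on both arrays.

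Several steps of metabolism are encoded by alternative genes, and the form known from liver was compared with the others. The hexokinase genes Hk1 (435 and 33100, 25.2-fold), Hk2 (11.6-fold) and Hk3 (33.4-fold) were higher in marrow. For several steps a form was higher in liver and another in marrow. This held for arginase, with Arg1 in liver and Arg2 in marrow (at least 14.6-fold), glycogen synthase, with Gys2 in liver and Gys1 in marrow (at least 10.4-fold), and pyruvate kinase, with Pklr 8.64-fold higher in liver and Pkm 18.1-fold higher in marrow. The low-affinity glucose carrier Slc2a2 was at least 1232-fold higher in liver, the high-affinity carrier Slc2a3 at least 323-fold (17.9 and 18400) and Slc2a6 20.1-fold higher in marrow, and Slc2a1 differed by 1.45-fold. In transferrin uptake, Tfr2 was 15.8-fold higher in liver and Tfrc 8.61-fold higher in marrow. Scd1, the liver desaturase, was 330-fold higher in liver, and Scd2 was 6.55-fold higher in marrow (443 and 8750).

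Other steps did not show this exchange. Mat1a was at least 5983-fold higher in liver, but Mat2a and Mat2b of the widely used form lay at 1.24-fold and 1.33-fold towards marrow. Aldoa was at 3.02-fold towards marrow and Aldoc 6.52-fold higher in liver, the last turning to -0.14 (log2) with spike-in scaling. For acetyl-CoA carboxylase, both forms were higher in liver, Acacb by 632-fold and Acaca by 9.36-fold. The phosphofructokinase genes Pfkl (1.33-fold) and Pfkm (1.22-fold) were within 2-fold, and only Pfkp was past the threshold, 9.70-fold higher in marrow. Cpt1a and Cpt1b lay at 3.36-fold and 3.41-fold towards liver, and both turned with spike-in scaling. For glucose 6-phosphatase, G6pc was 527-fold higher in liver and G6pc3 at 2.30-fold towards marrow. Lactate dehydrogenase had Ldha at 2.76-fold towards liver, Ldhb at 2.58-fold towards marrow and Ldhc at least 37.4-fold higher in marrow. Glycogen phosphorylase had Pygl near equal and Pygb at 3.76-fold towards marrow. Fbp1 of gluconeogenesis was 368-fold higher in liver, and Fbp2, Pygm, Ckm, Cpt1c and Fabp5 gave no fold. Cox6a2, a subunit form of muscle, was 27.8-fold higher in marrow and Cox6a1 at 2.33-fold towards liver, which turned with spike-in scaling. Alcohol dehydrogenases were all higher in liver, Adh1 by 1393-fold, Adh4 by at least 1591-fold, Adh7 by at least 4.11-fold and Adh5 by 5.74-fold, the last turning to -0.32 (log2) with spike-in scaling. Fabp4 was at 1.32-fold towards marrow, Ckb at 1.09-fold and the creatine enzyme gene Gamt 60.7-fold towards liver.

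Pck2, the mitochondrial form of the gluconeogenic carboxykinase, was 20.1-fold higher in marrow (195 and 11800), and Pck1 was not analysed here.

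**Figure D3:**
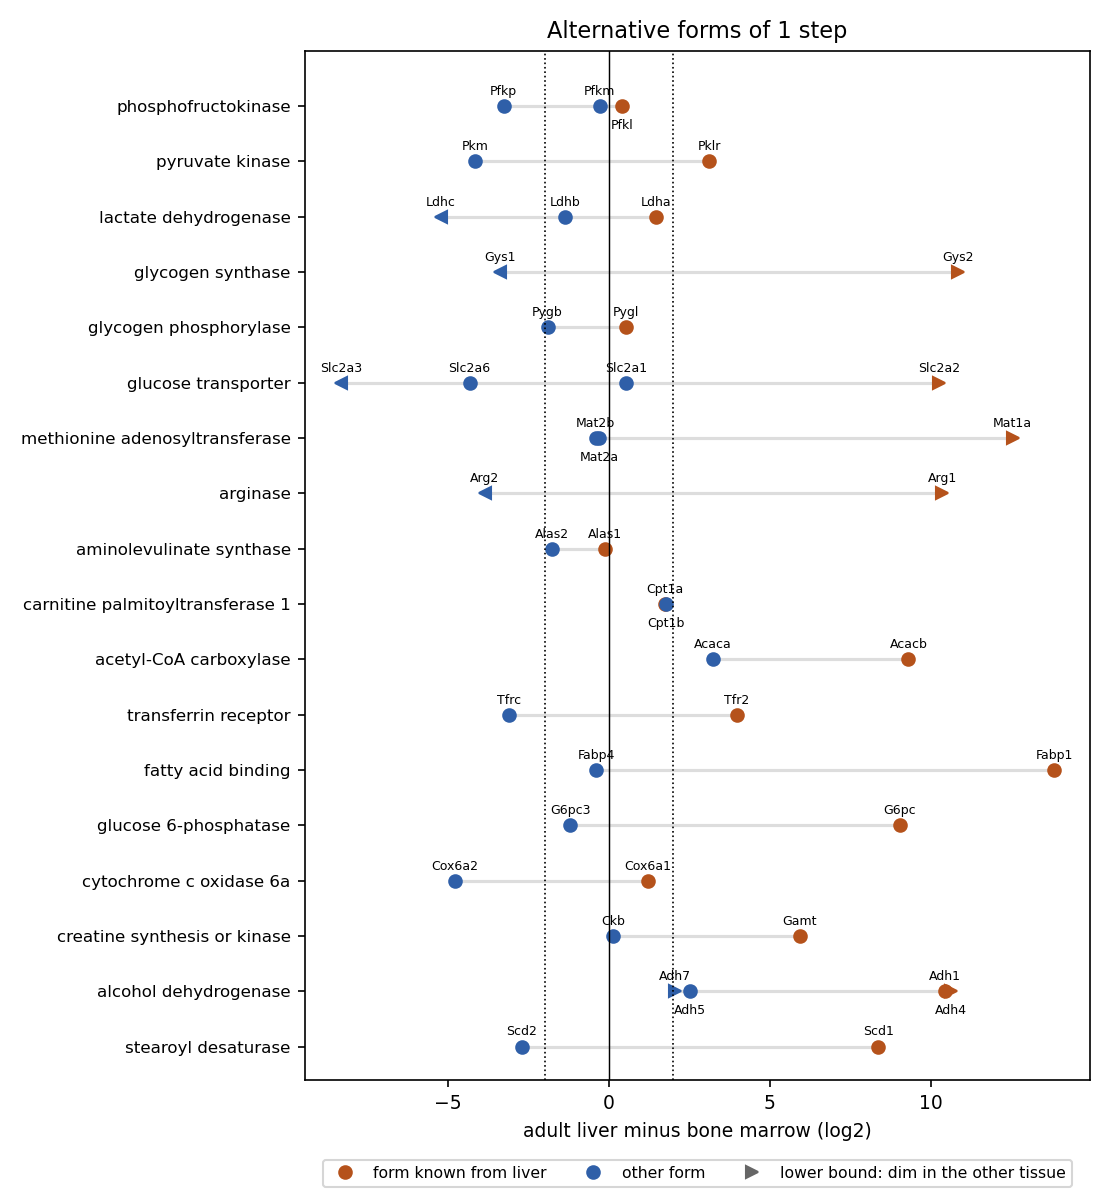
Log2 difference, adult liver minus bone marrow, for alternative genes of 18 metabolic steps (1 row per step); circles are genes measured in both tissues, triangles lower bounds for genes dim in 1 tissue, dotted lines the 4-fold threshold. Arg1, Gys2, Pklr, Slc2a2, Tfr2 and Scd1 lie right of the threshold with a counterpart left of it, and both forms of acetyl-CoA carboxylase lie on the right.

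Genes whose liver level is known to differ between the sexes were high on both sides. Of 13 male-biased genes, 12 were higher in liver than in marrow (median 938-fold), with Mup1 at least 31569-fold and Cyp2d9 4973-fold higher. Of 11 female-biased genes compared, 10 were higher in liver (median 20.5-fold), led by Cyp3a41a and Cyp3a44 (at least 2508-fold), while Cux2, Slc22a26 and Sult3a1 were dim on both arrays. The Y-linked genes Ddx3y (884 and 1240), Eif2s3y (1040 and 2840), Uty (30.4 and 35.7) and Kdm5d (66 and 235) were well above background in both tissues, and Xist was dim in both (4.67 and 5.64). Probes of the Cyp3a and Mup families may take up RNA of near-identical paralogs, which was not tested.

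Marrow's side opens with granulocytes. Of 39 late neutrophil genes, 37 were higher in marrow (median 75.6-fold), and the lactoferrin gene Ltf, the cathelicidin gene Camp, Retnlg and Ngp led. S100a9 was bright in marrow and measurable in liver (719 and 377000, 174-fold). Wfdc21 went the other way at 1.99-fold towards liver (41600 and 63100). Components of the oxidase that kills microbes were higher in marrow too, Cybb at 37.5-fold, Cyba at 42.3-fold and Ncf1 at 74.1-fold. Of 13 genes of primary granules and promyelocytes, 10 were higher in marrow (median 61.7-fold), with Mpo, Ms4a3 (at least 595-fold), Ctsg (565-fold) and Elane (at least 379-fold) in front. Gstm1, listed as an early granulocyte gene but a major transferase of hepatocytes, was 12.6-fold higher in liver, and Bpi was dim on both arrays.

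Of 21 genes of eosinophils, basophils and mast cells, 17 were higher in marrow (median 51.9-fold). Eosinophil genes were the largest, among them Prg2 with 3.86 in liver and 225000 in marrow (at least 3946-fold), Ear6 (at least 1121-fold) and Epx (at least 472-fold). Basophil and mast cell genes were also above the threshold, Prss34 at 290-fold, Mcpt8 at least 139-fold and Cpa3 at least 79.8-fold, while Mcpt4 and Tpsb2 of mature mast cells were dim on both arrays. The members of the Ear family resemble one another and their probes may share targets.

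Red cell formation was higher in marrow. Of 15 erythroid regulators, 13 were higher (median 46.9-fold), among them Hemgn (5.39 and 42800, at least 751-fold), Nfe2 (212-fold), Tal1 (91.2-fold), Klf1 (46.9-fold) and Gata1 (34.8-fold). Of 20 membrane and skeleton genes, 18 were higher (median 52.8-fold), with Rhd (at least 1184-fold), Slc4a1 (801-fold), Kel (at least 482-fold) and Cd24a (457-fold) leading. Globin and heme genes were closer, with 8 of 20 past 4-fold (median 3.39-fold), and Eraf, the chaperone of free alpha globin, stood far outside (4.64 and 142000, at least 2490-fold). The globin gene Hbb-y also lay far from the median (81.5 and 37000, 150.5-fold). The alpha globin gene Hba-a1 gave 17100 in liver and 469000 in marrow (9.09-fold), and the beta globin gene Hbb-bt 35500 and 422000 (3.94-fold). The signals of Hba-a1 and Hbb-bt were thus far above background on the liver array too. Alas1, which all cells use for heme, was at 1.09-fold and the red cell form Alas2 at 3.40-fold towards marrow. Iron handling was divided: Hamp, Tmprss6 (981-fold) and Hjv (at least 210-fold) of the hepcidin pathway were higher in liver, Tfrc and Slc11a2 (4.33-fold, with another probe past 4-fold towards liver) in marrow, and the ferritin genes Fth1 (2.35-fold) and Ftl1 (3.05-fold) within 4-fold.

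Platelet and megakaryocyte genes were higher in marrow for 21 of 24 (median 28.5-fold). F13a1 led, a factor also made by monocytes (5.15 and 29600, at least 519-fold), followed by the chemokine gene Ppbp (69.6 and 58000, 276-fold), Treml1 (193-fold) and Gp9 (130-fold). Vwf, shared with endothelium, was at 6.08-fold, and Clec1b, which sinusoidal endothelium also expresses, at 2.98-fold. Of 31 stem and progenitor genes compared, 20 were higher in marrow (median 7.77-fold), led by Myb (5.29 and 8995, at least 158-fold), Tal1, Gfi1b (both 91.2-fold) and Lyl1 (67.8-fold). Kit was at 6.02-fold and Cd34 at 11.8-fold. Hlf, a factor of stem cells that is also a clock-driven factor of hepatocytes, was the only member past the threshold towards liver (1400 and 299, 14.1-fold).

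Lymphoid lists were also higher in marrow. Of 21 early B cell genes, 18 were higher (median 8.38-fold), with Myb, Vpreb3 (142-fold), Bst1 (at least 79.8-fold) and Vpreb1 (64.6-fold) in front. Myb was also listed among stem and progenitor genes and white cell factors. Of 29 mature B and plasma cell genes, 23 were higher (median 17-fold), led by Igha (133 and 102000, 254-fold), Pou2af1 (131-fold) and Spib (at least 126-fold). Sdc1, a plasma cell marker that hepatocytes also express, went the other way, 45.0-fold higher in liver (7630 and 512). Of 34 T and NK cell genes, 22 were higher in marrow (median 7.24-fold), led by Nkg7 (85.7-fold) and Ly6c2 (34.2-fold), which was also listed as a monocyte gene. Among T cell receptor complex genes, Cd3d was 19.1-fold and Cd3g at least 10.3-fold higher in marrow, but Cd3e was at 1.45-fold towards liver. Zap70, a kinase of the receptor pathway, was 8.41-fold higher in liver. Antigen presentation divided by class. Classical class I genes were near equal, H2-K1 at 3.11-fold, B2m at 1.61-fold and H2-D1 at 1.53-fold towards liver, with the liver class I gene H2-Q10 69.1-fold and Cd1d1 24.7-fold higher there. Class II genes were higher in marrow, H2-Aa by 11.9-fold, H2-Ab1 by 4.46-fold and H2-Oa by 27.8-fold, while H2-Eb1 was at 3.56-fold.

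Of signalling genes shared by leukocytes, 31 of 32 were higher in marrow (median 19.6-fold). Ptprc, the CD45 antigen of leukocytes, gave 219.3 in liver and 26190 in marrow (39.6-fold). Cd53 (at least 150-fold), Coro1a (410 and 143000, 116-fold) and Cxcr2 (at least 75.6-fold) were among the largest. Transcription factors of white cells were less uniform, 12 of 26 higher in marrow (median 3.32-fold). Nfe2 and Myb led and Spi1, the PU.1 gene of myeloid and B cells, was at least 12.6-fold higher (3.88 and 718). Cebpa, shared by granulocyte precursors and hepatocytes, was 12.7-fold higher in liver (9070 and 2150), and Cebpb was at 1.55-fold. Monocyte and dendritic cell genes were higher in marrow for 13 of 24 (median 4.80-fold), with Ly6c1 at least 561-fold, Ccr2 at least 76.1-fold and Ms4a6c 57.4-fold higher, and Csf1r at 1.26-fold.

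A pair of marrow promoters is shown because both hold AGGAAGTG, a core of the motif of PU.1 and related Ets factors, on the opposite strand. They belong to Pf4, the platelet factor 4 gene (240 and 57700, 79.7-fold; chr5:90772315-90772434, plus strand, 120 bases before the start), and to S100a8 (chr3:90668891-90669070, plus strand, 180 bases before the start), both from RefSeq on GRCm38.p6. Capitals mark the match, which begins 11 bases before the start in Pf4 and 173 bases before it in S100a8.
Pf4: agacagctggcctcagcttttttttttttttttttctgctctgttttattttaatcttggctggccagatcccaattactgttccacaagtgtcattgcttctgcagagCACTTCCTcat
S100a8: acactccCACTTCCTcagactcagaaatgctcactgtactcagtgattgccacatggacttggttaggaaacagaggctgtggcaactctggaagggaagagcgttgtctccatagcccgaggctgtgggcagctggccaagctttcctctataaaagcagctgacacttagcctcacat

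Cell division genes were higher in marrow almost without exception. Of 48 genes of G2 and mitosis, 45 were higher (median 64.7-fold). Mki67 gave 76.7 in liver and 118000 in marrow (510-fold), the ubiquitin enzyme gene Ube2c 34.2 and 25600 (248-fold) and the kinetochore gene Cenpf 13.8 and 13000 (at least 228-fold). Bub1 (1.13-fold) and Spc24 (2.74-fold) were within 4-fold. Anln was 13.6-fold higher in liver by its representing probe, but its other probe was past 4-fold in the other direction, and the mean of both lay at -0.52 (log2), towards marrow. Of 41 genes of the G1/S transition and replication, 36 were higher in marrow (median 17.5-fold), led by Uhrf1 (186-fold), Cdc6 (at least 72.1-fold), the helicase subunit Mcm5 (193 and 38300, 65.8-fold) and E2f2 (64.6-fold). Mcm10, at 2.97-fold towards liver, did not follow.

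Genes that hold back the cycle did not mirror this. Of 21 compared, 3 were higher in liver, Gas1 (at least 21.5-fold), Gas2 (20.3-fold) and Tob1 (5.78-fold, which turned to -0.31 on the log2 scale with spike-in scaling), and 9 in marrow, led by Rbl1 (40.7-fold) and Cdkn2d (22.8-fold). Cdkn1a lay at 3.39-fold and Cdkn1c at 1.89-fold towards liver, and Cdkn1b was 4.03-fold higher in marrow. Cdkn2a was dim on both arrays.

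The promoters of 3 division genes are shown for the elements known from their timing. Capitals mark TTTGAA, the core of the cell cycle genes homology region (CHR), in Cdk1 (at least 179-fold higher in marrow; chr10:69352913-69353032, minus strand) and Mki67 (chr7:135716380-135716499, minus strand), each over 120 bases before the start, and TTTCCCGC, an E2F core, in Cdc6 (chr11:98908001-98908150, plus strand, 150 bases). Cdk1 and Mki67 hold 2 matches each, the nearest beginning 15 and 98 bases before the start, and Cdc6 holds 1 at 138 bases. The sequences are those of RefSeq on GRCm38.p6.
Cdk1: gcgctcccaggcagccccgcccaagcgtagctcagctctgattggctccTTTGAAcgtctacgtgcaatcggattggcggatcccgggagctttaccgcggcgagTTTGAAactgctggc
Mki67: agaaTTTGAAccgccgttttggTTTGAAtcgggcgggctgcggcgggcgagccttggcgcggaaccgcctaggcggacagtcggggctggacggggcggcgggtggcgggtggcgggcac
Cdc6: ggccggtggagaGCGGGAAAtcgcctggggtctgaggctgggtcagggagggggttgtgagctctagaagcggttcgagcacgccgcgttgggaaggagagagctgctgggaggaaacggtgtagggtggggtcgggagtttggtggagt

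Across all genes, promoter windows of 300 bases (250 before to 50 after the start) differed in composition with the size of the fold. RefSeq windows were found for 11319 of the 14283 genes compared, with 14349 windows in all. The median ratio of observed to expected CpG was 0.765 for genes within 2-fold (404 of these 5644 genes by a bound only), 0.535 for those at least 4-fold higher in liver and 0.616 for those at least 4-fold higher in marrow. It was 0.283 over 520 windows of genes at least 64-fold higher in liver and 0.304 over 206 windows of genes at least 64-fold higher in marrow. The median was 0.708 for all genes compared and 0.384 for all RefSeq windows. Windows of strongly different genes of both tissues were thus CpG-poor against the genes compared, and less so against all windows. The 4-fold classes lay below the genes compared but above all windows. The marrow class joined unlike groups, with a median of 0.165 for late neutrophil genes and 0.883 for G2 and mitosis genes.

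Short motifs were then counted on both strands of these windows. GTTAATNA (HNF1) was in 7.5% of the windows of genes at least 64-fold higher in liver, 0.971% for marrow, 1.04% for genes within 2-fold and 2.54% of all 32841 windows of the table. CAAAGTNCA (HNF4) was in 5.96%, 0%, 1.02% and 1.41%. AGGAAGTG (PU.1) was in 3.08% for liver, 6.8% for marrow, 4.06% within 2-fold and 4.07% of all. By these shares, liver factor motifs were more frequent in the liver class (39 of 520 windows for HNF1 and 31 for HNF4) and the PU.1 core in the marrow class. The PU.1 share rests on only 14 of 206 windows, and differences between shares were not tested. TTGCNNAA (C/EBP) was alike in both classes, 17.7% for liver and 16.5% for marrow, against 7.99% within 2-fold and 10.8% of all windows. The GATA factor core AGATAA was in 12.9% and 13.1%, against 6.98% within 2-fold and 11.2% of all. The Runx factor core TGTGGT was in 14.4% and 18.9%, against 12.8% within 2-fold and 16.8% of all. TTTCCCGC (E2F) was in 11.9% of the windows of G1/S and replication genes against 1.07% of all. TTTGAA (CHR) was in 65.9% of those of G2 and mitosis genes against 17.9%, and CCAAT (NF-Y) in 77.3% against 37.4%. TTTGAA was in 16.7% for G1/S genes. A match is a run of letters and no binding site, and the marrow class holds many of the mitosis genes.

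**Figure D4:**
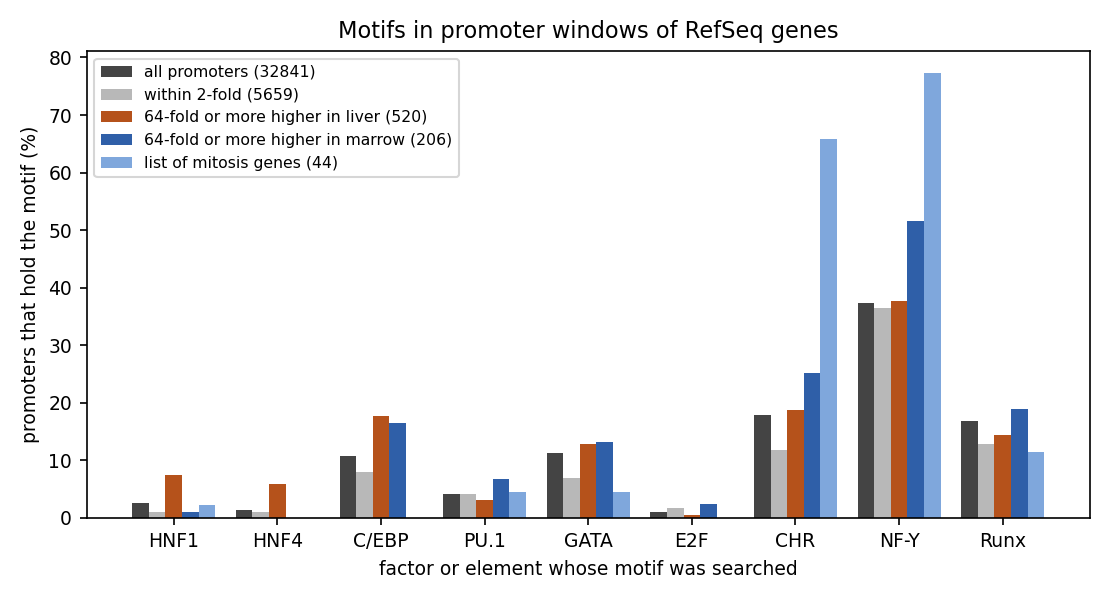
Share of RefSeq promoter windows of 300 bases that hold each motif on either strand, for all windows, genes within 2-fold, genes past 64-fold towards liver or towards marrow, and the list of mitosis genes, with the number of windows in brackets. The liver bars are highest for HNF1 (7.5%) and HNF4 (5.96%), and the mitosis list stands out for CHR (65.9%) and NF-Y (77.3%).

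By their medians, lists of genes that every cell uses were close between the tissues. Of 44 cytosolic ribosomal protein genes, 43 were within 4-fold (median 1.34-fold towards marrow), and only Rpl4 passed, 4.14-fold higher in marrow. Rplp0 gave 135000 and 294000 (1.39-fold towards liver). The 33 proteasome and chaperone genes had a median of 1.03-fold, with Pdia4 (6.06-fold, turning to -0.24 on the log2 scale with spike-in scaling) higher in liver and Cct3 (4.14-fold) in marrow. The proteasome subunit gene Psmd13 lay at -2.50 (log2), past the threshold towards marrow. Genes of ribosome assembly and nucleotide synthesis leaned to marrow, 10 of 29 past the threshold (median 1.96-fold), led by the growth regulator Myc (77.8 and 4948, 21.1-fold), Impdh1 (8.18-fold) and nucleolin, Ncl (7.003-fold). Respiratory chain genes leaned to liver, 3 of 37 past the threshold (median 2.33-fold), Sdha (7.66-fold), Uqcrb (6.47-fold) and Sdhc (4.32-fold), but with spike-in scaling their median lay at -1.62 (log2), towards marrow. Ndufa5, a subunit gene outside this list, lay at 2.11 (log2) towards liver and turned to -0.73 with spike-in scaling. Secretory pathway genes had a median of 1.85-fold towards liver, also turning with spike-in scaling (-2.05), with 5 of 28 past the threshold, among them the hepatocyte factor Creb3l3 (239-fold) and the disulfide isomerase gene P4hb (6.56-fold).

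Clock genes were higher in liver for 11 of 16 compared (median 8.57-fold). Nr1d1 (33.0-fold), Rora (30.8-fold), Hlf, Tef (11-fold) and Dbp (9.18-fold) were among them, and the activator Arntl was at 1.54-fold towards marrow, the only member compared that was lower in liver. No hour of tissue collection is stated. Only 1 of the 3 Nr1d1 probes passed 4-fold, and with spike-in scaling another probe represented it and gave -3.18 (log2). Interferon-stimulated genes had no common direction, 4 of 20 higher in liver, led by Mx2 (12.0-fold), and 2 in marrow, Rsad2 (383 and 25400, 21.98-fold) and Isg15 (229 and 10000, 14.5-fold). The median was 1.16-fold towards liver and turned with scaling to the median or to spike-ins. Immediate early genes were also divided, with Jun (6.86-fold) and Egr1 (5.37-fold) higher in liver and Fos (20.9 and 3008, at least 48.5-fold), Myc, Fosl2 (8.78-fold), Klf6 (7.25-fold), Ier3 (6.28-fold) and Ier5 (5.54-fold) higher in marrow. Both liver calls turned with spike-in scaling, to -0.06 and -0.42 (log2).

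Cells other than hepatocytes and blood were visible on both arrays. Of 27 endothelial genes, 18 were higher in liver (median 6.57-fold), led by Wnt2 of central vein endothelium (818 and 5.32, at least 104.1-fold) and the sinusoidal genes Clec4g (51.2-fold), Oit3 (49.5-fold) and Gpr182 (20.5-fold), but the list's median was -0.07 (log2) with spike-in scaling. Pecam1 (1.43-fold) and Fcgr2b (1.86-fold), which leukocytes share, leaned to marrow. Of 23 stellate cell and fibroblast genes, 11 were higher in liver, among them Colec10 (at least 383-fold), Colec11 (352-fold), Lhx2 (at least 56.7-fold) and the retinol esterifying enzyme gene Lrat (at least 49.8-fold), and 3 in marrow, Mgp (27.3-fold), Thy1 (14.0-fold) and Acta2 (9.46-fold). Of 5 Acta2 probes, 3 gave a fold and 1 passed 4-fold. Keratin genes of liver epithelium, Krt8 (22800 and 52.7, 1305-fold) and Krt18 (73.0-fold), were higher in liver, but the bile duct markers Krt7 (132 and 185, 2.15-fold) and Krt19 (70.1 and 6.05, at least 8.92-fold) were faint. Of 12 bile duct genes compared, 5 were higher in liver, among them Onecut1 (at least 141-fold) and Sox9 (at least 44.4-fold), and 2 in marrow, Tspan8 (at least 50.7-fold) and Prom1 (at least 12.0-fold).

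Macrophage genes did not separate the organs as a group. Of 27 compared, 7 were higher in liver, 3 in marrow and 17 neither (median 1.28-fold towards liver, and on the log2 scale -0.01 with scaling to the median and -2.48 with spike-in scaling). Clec4f, a lectin particular to Kupffer cells in the mouse, gave 3850 in liver and 10.8 in marrow (at least 490-fold). Folr2 (23.2-fold), Nr1h3 (21.4-fold), Timd4 (6.94-fold, turned to -0.04 on the log2 scale with spike-in scaling), Cd5l (5.13-fold) and Vsig4 (4.63-fold) were also higher in liver. Spic, the factor of red pulp and marrow macrophages that recycle heme, was 7.04-fold, Vcam1 7.16-fold and Cd68 7.65-fold higher in marrow, and Adgre1, the F4/80 antigen, was at 2.65-fold.

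Bone and stromal genes went both ways, 5 of 21 higher in liver and 8 in marrow (median 1.27-fold towards marrow). Ebf3 (at least 26.1-fold), Runx2 (at least 25.2-fold), the osteocalcin gene Bglap (at least 11.8-fold), the niche factor gene Kitl (22.9 and 371, 5.45-fold) and the leptin receptor gene Lepr (at least 5.28-fold) of marrow stroma were higher in marrow. Cxcl12, the chemokine that holds stem cells in marrow, was at 1.14-fold towards liver with 12800 and 34000. Towards liver, Omd was at least 33.6-fold higher, and the other 4 genes past the threshold turned with spike-in scaling, Acan (-0.02), Postn (-0.14), Alpl (-0.46) and Col2a1 (-1.44), all on the log2 scale. Osteoclast genes were higher in marrow for 4 of 11, led by Mmp9, which neutrophils share (4.93 and 32800, at least 575-fold), and the integrin gene Itgb3, which platelets share (32.7-fold), while Acp5 was at 1.16-fold. Among bone and stromal genes well above background in both tissues, the list's median lay at 1.09 (log2) towards liver. Of muscle genes, 6 of 12 were higher in marrow, led by Myh4 (at least 18.1-fold) and Mylpf (38.6 and 1810, 15.5-fold), and Myh2 was at least 17.1-fold higher in liver. Of 7 genes of pancreas, gut, kidney and adrenal compared, Fabp2 (1537-fold) was higher in liver and Cela1 (14.2-fold) and Lct (at least 13.4-fold) in marrow. Adipoq, the adiponectin gene of fat cells, was at least 43.9-fold higher in marrow (3.89 and 2500), whereas Cfd (43.7-fold) and Cidec (1487-fold), fat genes that liver also expresses, were higher in liver.

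Some genes higher in 1 tissue lay side by side. When compared genes were ordered along the chromosomes by the mm9 coordinates of the array file, 26 runs of at least 6 neighbours were all past 4-fold in the same direction, 18 towards liver and 8 towards marrow. They held 189 of the 4903 genes past 4-fold (3.85%), and the number expected by chance was not tested. The longest held 12 genes of the Ugt2 and Sult1 families on chromosome 5 (87319553 to 88005246), with Ugt2a3 at least 1553-fold, Ugt2b35 at least 821-fold and Sult1e1 at least 68.3-fold higher in liver. It was followed by 11 genes at the immunoglobulin kappa locus on chromosome 6 (67675592 to 70715770), with Igkv4-55 at least 195-fold and its last member Rpia, an enzyme of the pentose pathway, 7.77-fold higher in marrow. The Ms4a cluster on chromosome 19 (11142131 to 11661485) had 9 genes higher in marrow, led by Ms4a1 (63.3-fold). Runs of 8 genes towards liver lay at the Rdh cluster on chromosome 10 (Rdh7 at least 9763-fold), the Serpina cluster on chromosome 12, the Cyp2c cluster on chromosome 19, the Hsd3b cluster on chromosome 3 and around F11 and Klkb1 on chromosome 8. The stefin cluster on chromosome 16 held 8 genes higher in marrow, led by Stfa2l1 (at least 156-fold), and a histone cluster on chromosome 13 held 7, among them H1f3 (at least 39.2-fold). Members of such families resemble one another and may share probe targets, so the genes of a run are not separate evidence. Of 429 genes compared on the X chromosome, 13.1% were past 4-fold towards liver and 18.2% towards marrow, against 19.1% and 15.2% of all genes.

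Among solute carriers, of 9 Slco genes compared, 6 were higher in liver and 3 in marrow. Slc38a4, an amino acid carrier of hepatocytes, was at least 1273-fold higher in liver and Slc38a5, a carrier of red cell precursors, at least 696-fold higher in marrow. Slc25a47, a mitochondrial carrier of liver, was 1137-fold higher there, and Slc25a37, the mitochondrial iron importer of red cells, was 16.7-fold higher in marrow (2660 and 134000). Collagen genes numbered 9 of 27 higher in liver and 1 in marrow, led by Col18a1, the endostatin precursor (1030-fold).

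The fetal liver array places some of these genes. Of the leading liver genes, Rbp4 (110000), Serpina1d (80300), Ahsg (74500) and Ambp (57300) were bright in fetal liver, whereas Mup3 (83.6), Akr1c6 (106) and Cyp2d10 (1120) were far dimmer there than in adult liver. Of the leading marrow genes, Slc4a1 (138000), Mki67 (62300) and Cd24a (56100) were bright in fetal liver, whereas Chil3 (50.6), Ear1 (38.5), Ear10 (19.3) and Lcn2 (44.3) were not far from their adult liver signals.

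**Figure D5:**
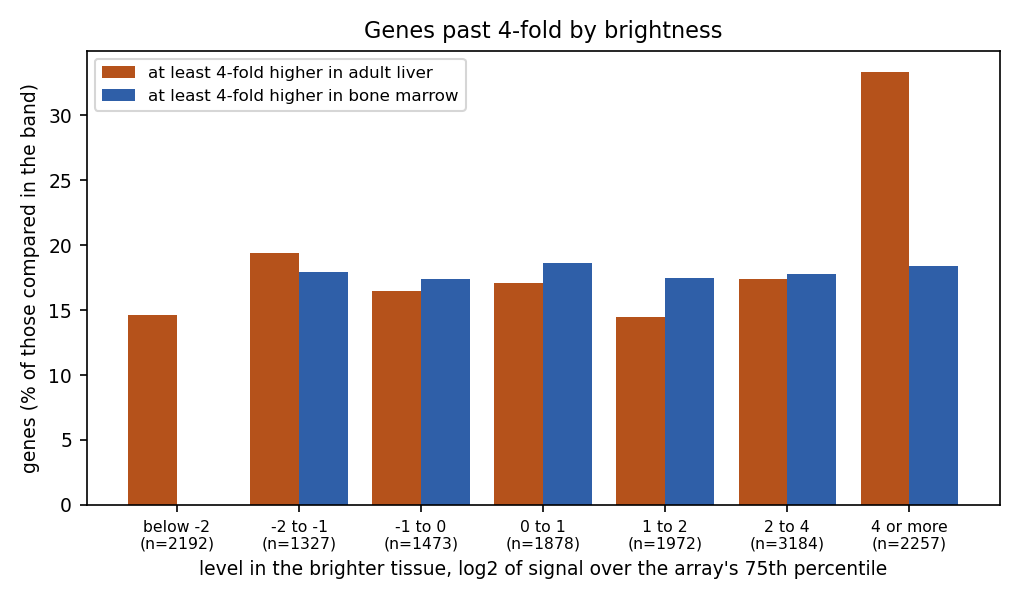
Genes past 4-fold towards adult liver or towards bone marrow, as a percentage of those compared in each band of brightness, where brightness is the log2 of the scaled signal in the brighter tissue. The shares were near equal between -2 and 4, while in the brightest band 33.3% of 2257 genes were higher in liver and 18.4% in marrow, and in the dimmest band 14.6% of 2192 were higher in liver and 0% in marrow.

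The balance of both sides depended on brightness, as the plot of shares by brightness shows. Among 2257 genes whose brighter side lay at least 4 log2 units above its 75th percentile, 751 were higher in liver and 415 in marrow. Between 0 and 1, the counts were 322 and 349 of 1878 genes. Below -2, they were 321 and 0 of 2192 genes. There a call towards marrow could not arise, since the liver floor lay at -3.97 on this scale and the marrow floor at -5.24. Of 2267 genes past 4-fold with several probes, every probe passed in the same direction for 810, and a probe passed in the opposite direction for 29, among them Anln, Ocstamp and Tcea1.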

How the data were processed

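Adult liver, fetal liver and bone marrow were each hybridised to 1 array. Agilent Feature Extraction 10.5.1.1 read the images, per the submitters' processing notes. The deposited scanner files hold, per the file headers, a background-subtracted signal intensity that was not normalized between arrays, the mean intensity and the local background. A table deposited by the authors has columns of raw and normalized signal. Its raw column held the signal's error estimate (equal within 1% on 45018 of 45018 spots per array), so its values entered only as an alternative.

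Each signal was divided by the 75th percentile of the array's 43379 gene spots, and log2 was taken, in Python 3.11.15 (numpy 2.4.6, pandas 2.3.3). Control spots were left out, as were 75 gene spots on the liver and 80 on the marrow array with an outlier flag. Spots of a probe were averaged. Of 41174 probes, 24836 were named through their accession in a RefSeq table (GRCm38.p6), 6051 through a current and 1795 through an older symbol, 90 kept the file's name, and 8402 are not named here. A gene was represented by the probe well above background on most arrays, then by the brightest. No gene spot was saturated. Of the genes named, 5501 gave no fold, 4855 of them dim in both tissues and 646 dim in 1 with no ratio above 1. Coordinates of probes are those of the array file, on mm9.

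The comparison, its lists and the genes named were chosen with earlier results of these data known. The rule for named genes took the 10 largest measured differences and the 8 brightest bounded genes per direction, the 4 largest members past 4-fold per direction of each of 55 lists, members past 4-fold against their list's majority, all alternative forms of 24 metabolic steps, sex-linked genes and the leading 2 members of 54 families with at least 5 genes compared. Of the families, only those with a result of note are named, and some genes that the rule took are not reported here. Further list members were named after their values were seen, as were the runs of neighbours. Promoter motifs were searched by exact letters, with N for any base. The scripts were tested on simulated data. Alternatives covered scaling (median, quantile, spike-ins), limma's normexp background with an offset of 50, filters, probe choice, names, the deposited table and thresholds of 2-fold and 8-fold. Precision is limited by 1 array per tissue.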

Additional observations from a re-analysis of the deposited data

How the results depend on the processing

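The counts of 2734 genes higher in liver and 2169 in marrow lay within 1.5 times under 9 of 12 alternatives and under 1 added after the data were seen. With scaling to spike-ins they became 849 and 9774, as that scaling moved the median of all genes by -2.84 (log2). An 8-fold threshold gave 1661 and 1271 and a 2-fold threshold 4704 and 3935. Scaling to the median moved all genes by -0.36 and gave 2253 and 2693, so that liver held 45.6% of the calls in place of 55.8% (7.99% with spike-ins). Other shifts of the median were -0.16 with quantile normalization, 0.14 with normexp, 0.12 with the mean of probes and 0.11 with the deposited table. Restricted to genes whose brighter side was at or above its 75th percentile, the counts were 1912 and 1676. Of 55 list medians, 12 changed sign with spike-ins and 2 with scaling to the median. Those of cholesterol synthesis (-0.55) and endothelial genes (-0.07) were past 4-fold and turned towards marrow with spike-ins. The log2 difference of these genes also turned there: Acan -0.02, Adh5 -0.32, Aldoc -0.14, Alpl -0.46, Bst2 -0.09, Col2a1 -1.44, Cyp17a1 -0.57, Egr1 -0.42, Fmo2 -0.35, Herpud1 -0.46, Ifit3 -0.30, Jun -0.06, Lman1 -0.22, Mrpl12 -0.59, Mrps34 -0.67, Ndufa5 -0.73, Nr1d1 -3.18, P4hb -0.13, Pdia4 -0.24, Postn -0.14, Sdhc -0.73, Stat2 -0.62, Timd4 -0.04, Tob1 -0.31 and Uqcrb -0.15. The spike-in shift itself accounts for these, except that Nr1d1 and Col2a1 were then represented by another probe. With the mean of all probes, Anln turned to -0.52 and Ocstamp to 0.75. The spike-in probes gave a mean signal of 11740 in liver and 4945 in marrow, and why they differ was not tested. No paired analysis was possible because each tissue has 1 array.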

Other observations

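Probes for olfactory receptors, which neither tissue is known for, were dim or gave no fold for 708 of 914 genes. Of the 206 compared, 44 (21.4%) were at least 4-fold higher in liver and 6 (2.91%) in marrow, against 19.1% and 15.2% of all genes. For faint probes the unequal floors of the arrays allow calls towards liver and none towards marrow, as in the dimmest band of brightness with 321 and 0 genes, and their part in these counts was not tested. Of 287 zinc finger genes of the Zfp series, 30 were higher in liver and 21 in marrow, below both shares of all genes.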
